A study of Mus musculus with 4 samples.

Results

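Solute carriers are the largest superfamily of membrane transport proteins, and their genes carry the symbol Slc followed by a subfamily number. The set described here held every gene on the array whose symbol begins in that way. Slc10a1, Slc25a20, Slc30a1, Slc37a4, Slc39a8, Slc39a14 and Slc40a1 were left out by the rule. It held 226 of the 10923 genes measured, in 48 subfamilies, measured by 351 of the 17209 probe sets that name a single gene. Of these genes 147 were read by 1 probe set, and where a gene had several, their average was used. A few members are not carriers themselves: Slc9a3r1 and Slc9a3r2 encode scaffold proteins, and Slc4a1ap encodes a protein named for binding a carrier.

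Solute carriers move sugars, amino acids, nucleotides, vitamins, metals, organic ions and metabolites across the plasma membrane and the membranes of organelles. Most run as uniporters, exchangers or symporters driven by an ion gradient, and not by hydrolysis of ATP. In the liver, carriers of the sinusoidal membrane take up amino acids, drugs and organic anions from blood, and those of the Slc25 subfamily link the cytosol to mitochondrial pathways such as the urea cycle. Hepatocytes that enter the cell cycle after a loss of liver mass depend on amino acid and nucleotide supply.

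The animals were C57BL6/J males, 6 to 13 weeks old, and the tissue was liver. An siRNA was given by 1 injection with Invivofectamine 3.0, 40% partial hepatectomy followed 3 days later, and the regenerating liver was sampled 48 hours after surgery. There were 2 control arrays (siControl) and 2 after an siRNA against Orm1 (siOrm), which encodes the acute phase protein orosomucoid. All 4 arrays are of livers after surgery, and the injection of the controls is not described further. The labels do not say how many mice an array stands for, so a p-value reflects the spread among these arrays alone, which may be technical.

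Values are log2 signals, with base 2 assumed, and every probe set had been centred on its median over the 4 arrays. A value says how an array stood for that gene relative to the other arrays, and levels of different genes cannot be compared. Whether a carrier was above background, and whether the livers carried hepatocyte markers at the level of a normal liver, cannot be read from centred values. Differences are siOrm minus siControl. Since the RNA is from whole liver, fewer cells of a type and less RNA per cell cannot be told apart.

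The siRNA target differed by -0.23 (SE 0.15) for Orm1, by -1.08 (SE 0.34) for Orm2 and by -0.91 (SE 0.34) for Orm3, and none of these passed the test (limma, adjusted p = 0.994 for each). Over all 10923 genes 0 passed at an adjusted p under 0.05. Markers of non-parenchymal cells were uneven between the siControl arrays. The mean of the 10 macrophage and Kupffer cell markers was -0.26 and 0.72 in siControl replicates 1 and 2 and -0.026 and -0.043 in the siOrm arrays. The 8 stellate cell and fibroblast markers measured had means of -0.28 and 0.42 against -0.15 and 0.15, and the 7 endothelial markers of 8 had means of -0.15 and 0.32 against 0.011 and -0.045. The 7 neutrophil markers of 8 stood at 0.13 and 0.64 against -0.096 and -0.054, with S100a8 at 2.75 in siControl replicate 2. The 7 lymphocyte markers of 8 stood at 0.13 and -0.17 against 0.17 and -0.0085, and the 4 biliary markers of 6 at -0.077 and 0.14 against -0.00013 and 0.21. The 7 hepatocyte markers of 8 had means closer together, of -0.0078 and -0.0051 against -0.061 and 0.0060. In siOrm replicate 1 the hepatocyte marker Tat stood at -0.78, and the median of the 7 markers there was 0.029. In siControl replicate 2 the macrophage, neutrophil, endothelial and stellate means were thus the highest of the 4 arrays. The part of these cells in the carrier values was not tested.

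**Figure D1:**
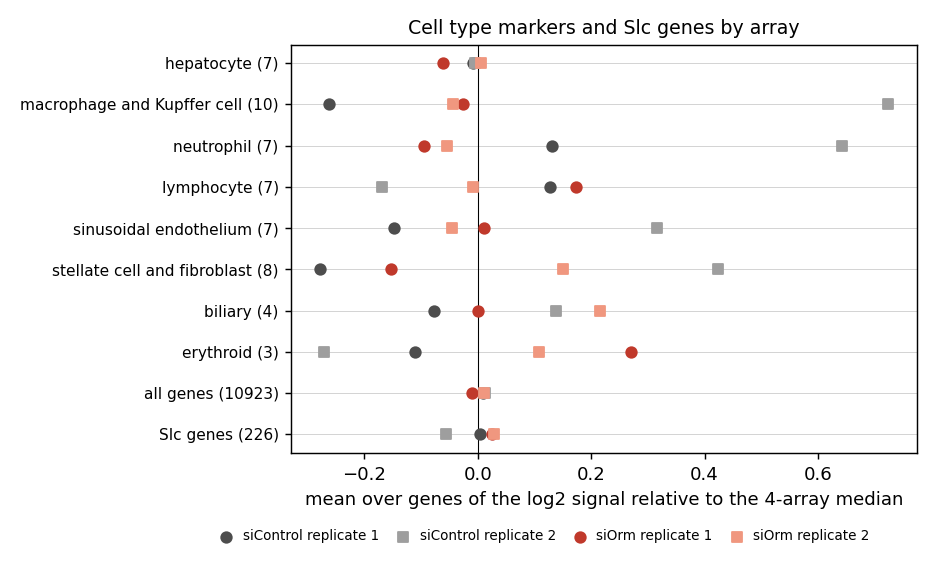
Mean centred log2 signal (x axis) of each marker list, of all genes and of the Slc genes (rows, with the number of measured genes) in each of the 4 arrays. Macrophage, neutrophil, endothelial and stellate markers stand highest in siControl replicate 2, at 0.72 for macrophages, while the mean of the Slc genes is lowest there, at -0.056.

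No solute carrier gene passed the test between siOrm and siControl livers. Of the 226 genes 0 had an adjusted p under 0.05 (limma, adjusted over all genes; 0% of all genes passed). The smallest adjusted p among the carriers was 0.857 by limma. An unadjusted p under 0.05 was found for 17 carriers, or 7.52%, and for 4.76% of all genes. Of these 17, 12 carriers were higher in siOrm, or 5.31%, where 2.18% of all genes were higher, and 5 lower, or 2.21%, where 2.58% of all genes were lower. The siOrm arrays were both higher than either siControl array for 55 carriers, or 24.3% against 17.0% of all genes. They lay below for 33 carriers, or 14.6% against 15.3% of all genes. Counts for subfamilies and lists below have the same background: 17.0% of all genes separated upwards, 15.3% downwards and 4.76% at an unadjusted p under 0.05. Some differences grew without siControl replicate 1, to 1.17 for Slc15a2, 0.91 for Slc25a47 and 1.16 for Slc8b1. These carriers were low in the control array that remained, siControl replicate 2, at -0.95, -0.65 and -1.09. The counts depended on the probe sets and arrays used. Of the 12 higher carriers 6 rested only on probe sets of a name type that can share sequence. Such names can mark sequence shared with other genes or only between transcripts of the same gene, and these cases were not told apart. Without such probe sets 5 of 191 carriers were higher at an unadjusted p under 0.05. The share of all genes was not counted in that setting, so the larger share of carriers, 5.31% against 2.18%, holds for the main fit only. With 1 array left out the counts at that threshold were fewest without siOrm replicate 1 and most without siControl replicate 1. Such fits leave 1 array in a group, so their counts are not given here.

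The median difference of the carriers was 0.044, where the median of all genes was 0.0084, and 131 of 226 carriers, or 58.0%, had a difference above 0, against 52.2% of all genes. The carrier medians of siControl replicates 1 and 2 were 0.013 and -0.050, and those of siOrm replicates 1 and 2 were 0.023 and 0.010. Thus 3 arrays lay close together, and siControl replicate 2 was the low array. It was the lowest of the 4 for 101 carriers, or 44.7%, and for 38.9% of all genes. Without siControl replicate 2 the median difference of the carriers was 0.025, and without siControl replicate 1 it was 0.096. Most differences were small: the range between the quartiles ran from -0.073 to 0.17, with a median standard error of 0.15 for a gene. Differences of 0.5 or more in either direction were found for 17 carriers, or 7.52%, against 4.70% of all genes.

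**Figure D2:**
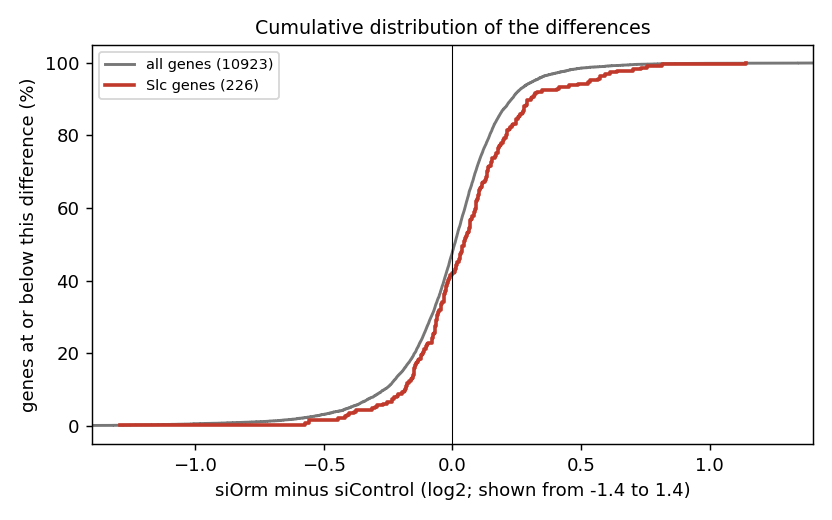
Cumulative share of genes (y axis, percent) by siOrm minus siControl difference (x axis, log2) for all 10923 genes in grey and the 226 Slc genes in red. The red curve lies to the right of the grey one over most of its course, with medians of 0.044 and 0.0084.

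Organic ion carriers of the Slc22 subfamily held the 3 carriers with the smallest p-values. Slc22a29 stood at -0.49 and -0.32 in siControl and at 0.49 and 0.32 in siOrm. Slc22a27 stood at -0.32 and -0.47 against 0.32 and 0.35. Slc22a7, which encodes the hepatocyte organic anion transporter OAT2, stood at -0.27 and -0.36 against 0.33 and 0.27. In all 3 genes the groups were separated by more than the gap within either of them. The differences were 0.81 (SE 0.14, 95% interval 0.46 to 1.17) for Slc22a29, 0.73 (SE 0.13, interval 0.40 to 1.06) for Slc22a27 and 0.61 (SE 0.13, interval 0.29 to 0.93) for Slc22a7. None passed the test (limma, adjusted p = 0.857, 0.857 and 0.994). Leaving out 1 array gave values from 0.73 to 0.90, from 0.66 to 0.81 and from 0.57 to 0.65.

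Slc22a27 and Slc22a29 belong to a group of closely related Slc22 genes that lie side by side on mouse chromosome 19. In the order of the GRCm38.p6 gene table these are Slc22a19, Slc22a26, Slc22a27, Slc22a28, Slc22a29, Slc22a30, Slc22a8 and Slc22a6, of which 6 were measured. The members did not share a direction. Slc22a30 differed by 0.27 (SE 0.14), with the arrays at -0.060 and -0.22 against 0.060 and 0.20. Slc22a8, an organic anion transporter best known from kidney, differed by 0.22 (SE 0.17; 0.031 without siControl replicate 2), Slc22a6 by -0.031 (SE 0.13) and Slc22a26 by -0.14 (SE 0.24). Slc22a27 and Slc22a29 were each read by 1 probe set of a name type that can share sequence, as was Slc22a7. Whether the signal came from these genes alone cannot be told.

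Of the 15 Slc22 genes 12 had differences above 0, and 6 were separated upwards, with both siOrm arrays highest, and 0 downwards. The median of the subfamily was 0.092, with array medians of -0.017 and -0.19 in siControl and 0.10 and -0.0058 in siOrm. Slc22a23, a member without a known substrate, differed by 0.29 (SE 0.13) and was the other member near the top. Slc22a5, the carnitine importer OCTN2, had arrays at 0.15 and -0.50 against -0.10 and 0.24. Its groups overlapped, and its difference of 0.25 (SE 0.25) was -0.078 without siControl replicate 2. Slc22a4 and Slc22a2 differed by -0.072 (SE 0.19) and 0.085 (SE 0.14). Slc47a1, which encodes MATE1, an exporter of organic cations at the canalicular membrane, stood at -0.28 and -0.12 against 0.61 and 0.12. Its difference was 0.57 (SE 0.20, interval 0.078 to 1.05), or 0.32 without siOrm replicate 1. Over the 16 genes of the list of organic cation, anion and carnitine transporters the median was 0.16, with 6 separated upwards and 0 downwards and 4 at an unadjusted p under 0.05, all higher.

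Organic anion transporting polypeptides, which carry the symbol Slco and are not members, were measured for comparison. All 5 measured genes of 7 listed had differences above 0, with a median of 0.17, and 3 were separated upwards. Slco1a4 differed by 1.37 (SE 0.31) and Slco1a1 by 0.76 (SE 0.33). The arrays of Slco1a1 stood at -0.091 and -1.11 against 0.15 and 0.16, with siControl replicate 2 far below the others. Of the 11 measured hepatocyte ABC transporters, pumps driven by ATP, 2 were separated upwards and 1 downwards, with a median of 0.14. Differences were above 0 for 7 of them and below for 4. Abcc6 differed by 0.41 (SE 0.16) and Abcd3, a peroxisomal importer, by 0.34 (SE 0.13). On the lower side Abca1 differed by -0.45 (SE 0.22) and Abcc2, with overlapping groups, by -0.34 (SE 0.27).

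**Figure D3:**
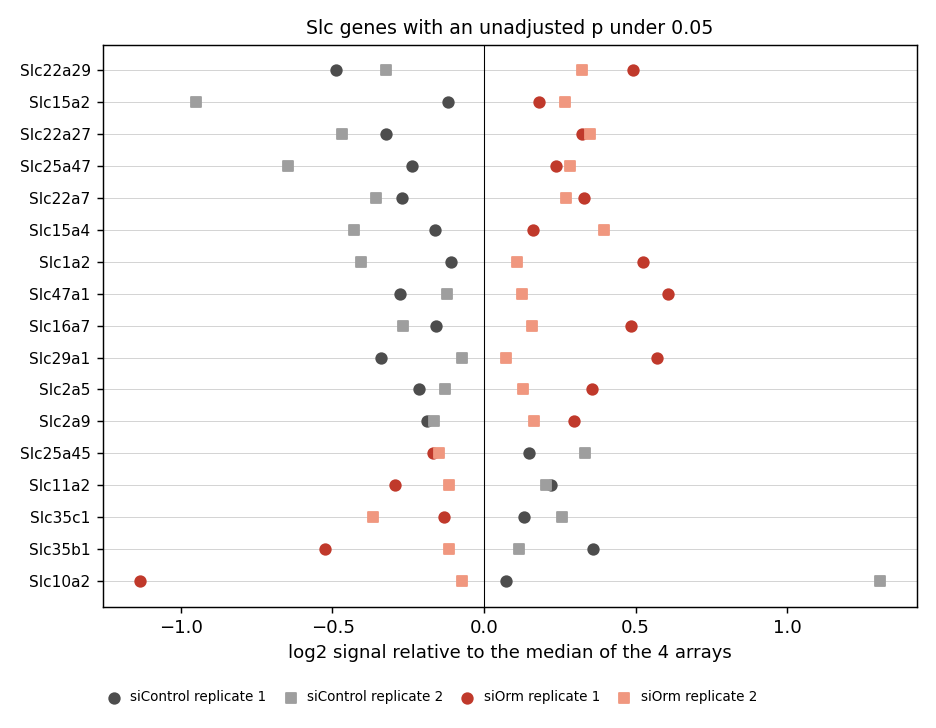
Centred log2 signal (x axis) of the 17 Slc genes with an unadjusted p under 0.05 (rows, ordered by difference) in each array, siControl in grey and siOrm in red. In 12 genes both siOrm arrays stand above both siControl arrays and in 5 below; none passed the adjusted test.

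Peptide transporters of the Slc15 subfamily held 2 of the 12 higher carriers. Slc15a2, the proton-coupled peptide importer PEPT2, stood at -0.12 and -0.95 in siControl and at 0.18 and 0.27 in siOrm. Slc15a4, a lysosomal carrier of histidine and peptides, stood at -0.16 and -0.43 against 0.16 and 0.40. The gap between groups for Slc15a2 depended on siControl replicate 2: the difference was 0.76 (SE 0.28), or 0.34 without that array and 1.17 without siControl replicate 1. Both probe sets of Slc15a2 were higher in siOrm, at 1.13 and 0.39. Slc15a4 differed by 0.58 (SE 0.16, interval 0.17 to 0.98). Slc15a3, the lysosomal relative found in macrophages, went the other way at -0.18 (SE 0.26) and was highest in siControl replicate 2, at 0.54, where macrophage markers were also highest.

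Mitochondrial carriers of the Slc25 subfamily were the largest group, with 31 genes, and did not share a direction. The subfamily median was 0.049, with 18 differences above 0 and 13 below, 9 genes separated upwards and 6 downwards. Array medians were -0.0062 and -0.025 in siControl against 0.022 and 0.0021 in siOrm. Slc25a47, a carrier expressed mainly in hepatocytes, stood at -0.24 and -0.65 against 0.24 and 0.28, a difference of 0.70 (SE 0.18, interval 0.27 to 1.14). Its probe set is of a name type that can share sequence, and leaving out 1 array gave differences from 0.50 to 0.91. At the other end Slc25a45 stood at 0.15 and 0.33 against -0.17 and -0.15, a difference of -0.40 (SE 0.14, interval -0.74 to -0.061). Slc25a30 differed by -0.38 (SE 0.20), but its 4 probe sets disagreed, with 3 between -0.66 and -0.50 and 1 at 0.22.

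Carriers that serve the urea cycle and the malate shuttles mostly lay on the higher side. Of 6 measured genes 4 were separated upwards and 0 downwards, against 17.0% and 15.3% of all genes. The median was 0.19, and 0 had an unadjusted p under 0.05. Slc25a11, the oxoglutarate carrier, differed by 0.25 (SE 0.14), Slc25a10, the dicarboxylate carrier, by 0.21 (SE 0.13) and Slc25a22, a glutamate carrier, by 0.20 (SE 0.15). Slc25a13, the aspartate and glutamate exchanger citrin, stood at -0.20 and -0.0021 against 0.15 and 0.0021, a difference of 0.18 (SE 0.14). Slc25a15, the ornithine carrier of the urea cycle, lay on the other side at -0.11 (SE 0.17), and at 0.069 without siControl replicate 2. The list medians by array were -0.15 and -0.042 in siControl against 0.13 and 0.025 in siOrm.

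Adenine nucleotide and phosphate carriers had a median of 0.033 over 5 genes, with 1 separated upwards. Slc25a5, the adenine nucleotide translocase of dividing cells, was read by 8 probe sets and stood between -0.054 and 0.092 in all 4 arrays. Slc25a4, its muscle-type paralog, spread further within siControl (-0.51 and 0.44) than between the groups (0.033, SE 0.32). Slc25a3, the phosphate carrier, differed by -0.059 (SE 0.13) and Slc25a23 by 0.17 (SE 0.13). Slc25a25, an exchanger of ATP-Mg and phosphate, had no stable direction: its arrays stood at 0.69 and -0.45 against -0.58 and 0.45, so that each group held a high and a low array. Slc25a33, a pyrimidine nucleotide carrier, was similar in siControl at 0.76 and -0.51, against -0.19 and 0.19 in siOrm. Slc25a42, the importer of coenzyme A, differed by 0.29 (SE 0.15).

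**Figure D4:**
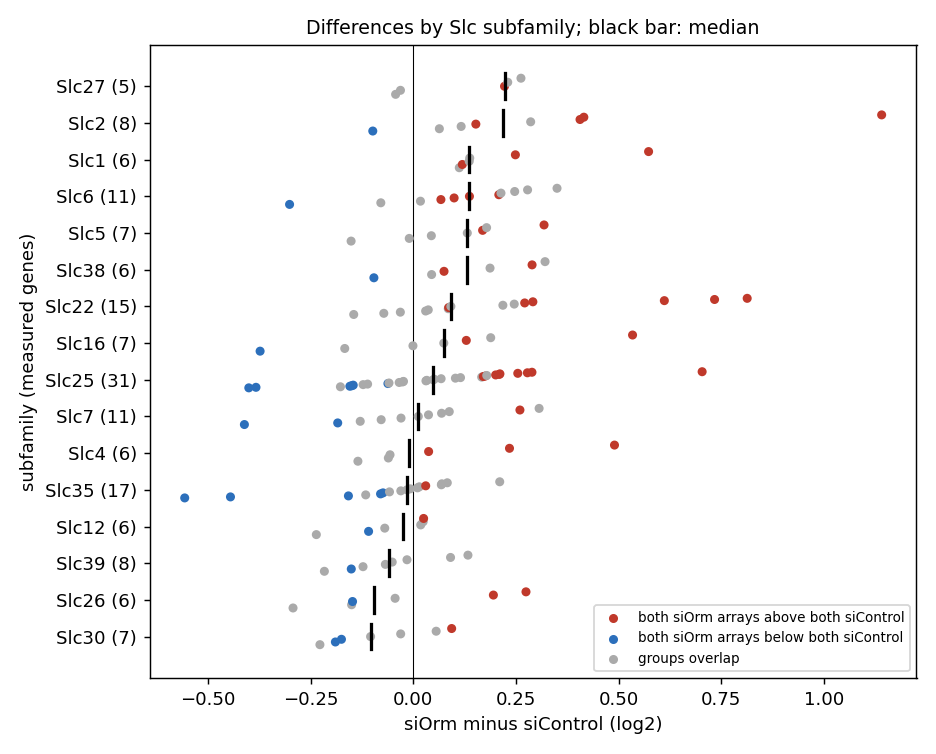
Differences (x axis, log2) of the genes in the 16 subfamilies with at least 5 measured genes (rows, ordered by median, numbers of genes in brackets), which hold 157 genes. Red points mark genes with both siOrm arrays above both siControl arrays, blue points those below, grey points overlapping groups, and the black bar the median. Slc27 and Slc2 have the highest medians, at 0.22 each, and Slc30 the lowest, at -0.10; no subfamily lies wholly on the lower side.

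Amino acid transporters of the cell surface spread to both sides. Over 26 measured genes of 35 listed the median was 0.097. Of these 7 were separated upwards and 3 downwards, against 17.0% and 15.3% of all genes, and 1 had an unadjusted p under 0.05. That gene, Slc1a2, encodes a glutamate transporter of perivenous hepatocytes and brain astrocytes. It stood at -0.11 and -0.41 against 0.52 and 0.11, a difference of 0.57 (SE 0.20, interval 0.083 to 1.06), or 0.37 without siOrm replicate 1. Its only probe set is of a name type that can share sequence. All 6 Slc1 genes had differences above 0, with a median of 0.14. Slc1a5, the glutamine and neutral amino acid exchanger ASCT2, differed by 0.25 (SE 0.14) and Slc1a4 by 0.12 (SE 0.13), both with separated groups. The Slc1 medians by array were -0.033 and -0.24 in siControl against 0.11 and 0.054 in siOrm.

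The Slc7 subfamily, which holds the cationic amino acid transporters and the light chains of the heteromeric exchangers, was centred near 0. Its 11 genes had a median of 0.012, with 6 differences above 0, 1 gene separated upwards and 2 downwards, and 0 at an unadjusted p under 0.05. Slc7a7, a light chain for cationic amino acids, stood at 0.031 and 0.074 against -0.69 and -0.031, a difference of -0.41 (SE 0.23) that was -0.084 without siOrm replicate 1. Slc7a8, the light chain of a neutral amino acid exchanger, differed by 0.31 (SE 0.18) and Slc7a13 by 0.26 (SE 0.16), the latter by 0.087 without siControl replicate 2. Slc7a5, the light chain of the large neutral amino acid exchanger, stood at 0.23 and -0.17 against -0.064 and 0.064, and its heavy chain Slc3a2 at 0.0081 and 0.089 against -0.13 and -0.0081. Their differences were -0.030 (SE 0.18) and -0.12 (SE 0.13). The arginine importers Slc7a1 and Slc7a2 differed by -0.13 (SE 0.17) and 0.069 (SE 0.16). The sign of the Slc7 median was not stable: it was 0.0998 without siControl replicate 1, -0.0997 without siControl replicate 2 and -0.0087 after quantile normalization.

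System A and N amino acid transporters of the Slc38 subfamily had a median of 0.13 over 6 genes. Slc38a4, the main system A carrier of hepatocytes, stood at -0.014 and -0.41 against 0.14 and 0.014, a difference of 0.29 (SE 0.18), or 0.093 without siControl replicate 2. Slc38a3, a glutamine carrier, differed by 0.19 (SE 0.19). Slc38a2, a carrier that cells induce when amino acids are scarce, stood at 0.30 and -0.90 against -0.30 and 0.35, and its spread within the groups was wider than its difference of 0.32 (SE 0.43). The groups of Slc38a2 overlapped, and the difference was -0.28 without siControl replicate 2. Slc6 carriers, which use sodium and chloride to import neurotransmitters, taurine, betaine and creatine, had a median of 0.14 over 11 genes. Slc6a8, the creatine importer, lay lowest at -0.30 (SE 0.17), with separated groups, and at -0.13 without siControl replicate 2. Slc6a13, a hepatic importer of GABA and taurine, differed by 0.28 (SE 0.18), Slc6a3 by 0.21 (SE 0.13) and the glycine carrier Slc6a9 by 0.14 (SE 0.13).

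ATF4 is a transcription factor that induces amino acid transporters and biosynthetic enzymes when amino acids are short or the endoplasmic reticulum is stressed. The 8 measured transporters on the list of its targets had a median of 0.078, with 3 separated upwards and 1 downwards and 0 at an unadjusted p under 0.05. The 20 other ATF4 targets listed were all measured and had a median of -0.13, with 2 separated upwards and 6 downwards, and 1 each way at an unadjusted p under 0.05. Asns, asparagine synthetase, stood at 0.21 and 0.27 against -1.17 and -0.21, a difference of -0.94 (SE 0.31). Trib3, a pseudokinase, went the other way at 0.84 (SE 0.27). No difference between the transporter list and the other list was tested.

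Sugar and monocarboxylate carriers included the glucose transporter of hepatocytes. Slc2a2, which encodes GLUT2, stood at -1.52 and -0.024 in siControl and at 0.71 and 0.024 in siOrm. The groups did not overlap, but the second replicates of both groups lay close to each other, and the low value of siControl replicate 1 was the most extreme in the carrier set. The difference was 1.14 (SE 0.51, interval -0.12 to 2.41), or 0.39 without siControl replicate 1. Slc2a9, a urate carrier, stood at -0.19 and -0.16 against 0.30 and 0.16, and Slc2a5, the fructose carrier, at -0.21 and -0.13 against 0.36 and 0.13. These were more even, with differences of 0.41 (SE 0.13, interval 0.081 to 0.73) and 0.42 (SE 0.14, interval 0.057 to 0.77). Slc2a1, the widespread glucose transporter GLUT1, overlapped between groups, at -0.056 and 0.051 against -0.17 and 0.40. Of 8 Slc2 genes 7 had differences above 0 and the median was 0.22. The exception was Slc2a3, at -0.098 (SE 0.13), whose only probe set without a name type that can share sequence differed by 0.29.

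Slc16a7, the monocarboxylate transporter MCT2, stood at -0.16 and -0.27 against 0.49 and 0.16, a difference of 0.53 (SE 0.16, interval 0.13 to 0.94). Slc16a6 lay at the other end of this family of lactate, pyruvate and ketone body carriers, at 0.081 and 0.50 against -0.088 and -0.081, a difference of -0.37 (SE 0.18) that was -0.16 without siControl replicate 2. Slc16a1, the widespread carrier MCT1, differed by -0.17 (SE 0.15). The 7 Slc16 genes had a median of 0.074, which became -0.039 without siOrm replicate 1. Slc29a1, the nucleoside transporter ENT1 that supplies nucleosides for salvage, stood at -0.34 and -0.071 against 0.57 and 0.071. Its difference of 0.53 (SE 0.21, interval 0.0034 to 1.05) was 0.28 without siOrm replicate 1, and its only probe set is of a name type that can share sequence. The other nucleoside carriers Slc29a2 and Slc28a3 differed by 0.13 (SE 0.14) and -0.062 (SE 0.15).

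**Figure D5:**
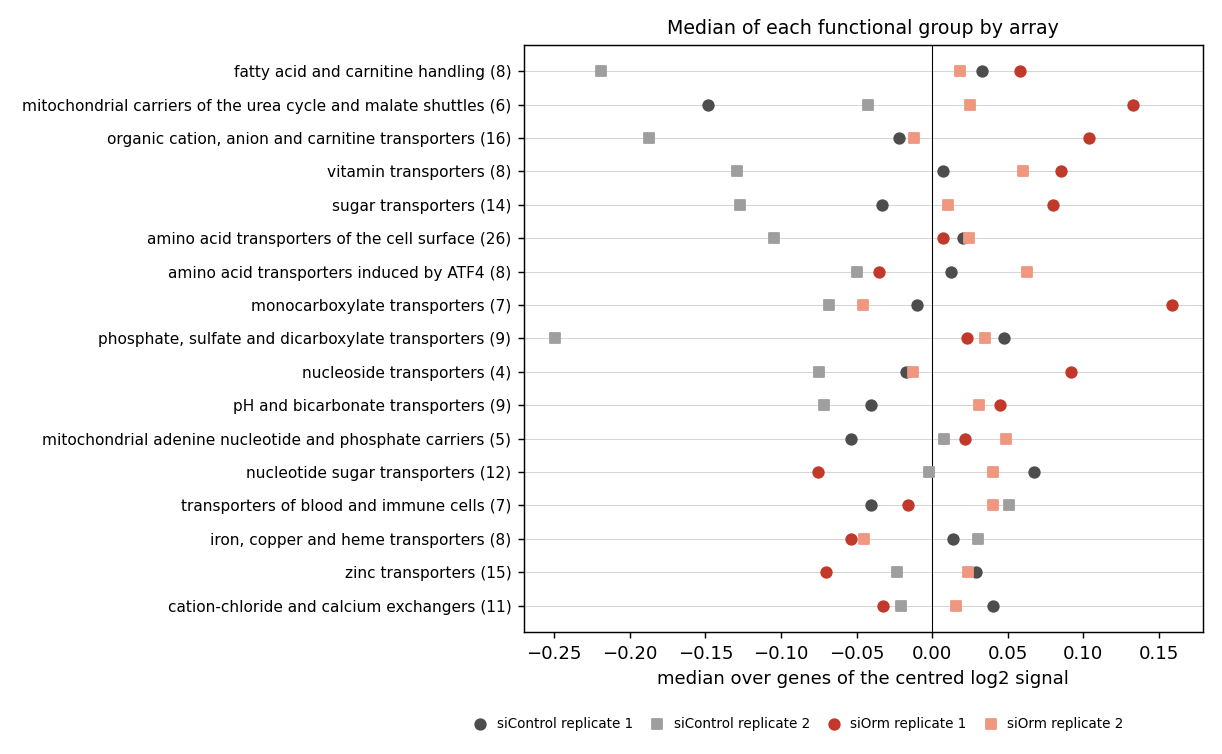
Median centred log2 signal (x axis) over the measured genes of each functional group of carriers (rows, ordered by median difference, numbers of genes in brackets) in each array. In the amino acid, fatty acid, organic ion, sugar and vitamin groups siControl replicate 2 stands lowest, at -0.22 for fatty acid and carnitine handling, while in the zinc and nucleotide sugar groups siOrm replicate 1 is lowest.

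Fatty acid transport proteins of the Slc27 subfamily, which activate long-chain fatty acids or bile acids with coenzyme A, had the highest median among subfamilies of at least 5 genes, 0.22 over 5 genes, and it rested on siControl replicate 2. Slc27a2 stood at 0.057 and -0.45 against 0.13 and -0.057, and Slc27a5, the bile acid activating member of hepatocytes, at -0.0073 and -0.26 against 0.17 and 0.0073. The low array was siControl replicate 2 in both. Their differences were 0.23 (SE 0.20) and 0.22 (SE 0.15), and without that array the subfamily median was -0.021. Slc27a3 differed by 0.26 (SE 0.21), and 0 of the 5 genes had an unadjusted p under 0.05.

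Vitamin, phosphate and anion carriers gave small differences. Of 8 vitamin carriers 3 were separated upwards and 0 downwards, against 17.0% and 15.3% of all genes, with a median of 0.15. Slc19a1, the reduced folate carrier, stood at -0.0091 and -0.35 against 0.28 and 0.022, a difference of 0.33 (SE 0.18), or 0.16 without siControl replicate 2. Slc5a6, the sodium-dependent multivitamin transporter, differed by 0.32 (SE 0.14) and the ascorbate carrier Slc23a2 by 0.20 (SE 0.16), or by 0.041 without that array. Other Slc5 genes were Slc5a1, a sodium and glucose symporter, at 0.17 (SE 0.13) and Slc5a9 at 0.18 (SE 0.18). Slc17a1, a phosphate and urate carrier of hepatocytes and kidney, stood at -0.023 and -0.43 against 0.023 and 0.43, a difference of 0.45 (SE 0.21) that was 0.25 without either second replicate. Slc13a2 and Slc17a3 differed by 0.28 (SE 0.22) and -0.25 (SE 0.19), or by -0.0046 and -0.029 without siControl replicate 2.

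Nucleotide sugar and related carriers of the Slc35 subfamily, which supply the endoplasmic reticulum and Golgi, held 2 of the 5 carriers lower at an unadjusted p under 0.05. Slc35b1, reported as the ATP and ADP exchanger of the endoplasmic reticulum, stood at 0.36 and 0.11 in siControl and at -0.52 and -0.11 in siOrm. Slc35c1, the GDP-fucose carrier of the Golgi, stood at 0.13 and 0.26 against -0.13 and -0.37. Both siOrm arrays were below both siControl arrays in each. The differences were -0.56 (SE 0.19, interval -1.03 to -0.085) and -0.44 (SE 0.15, interval -0.81 to -0.078), and Slc35b1 was at -0.35 without siOrm replicate 1. The 17 Slc35 genes had a median of -0.015, with 1 separated upwards and 5 downwards, among them the UDP-galactose carrier Slc35a2 at -0.16 (SE 0.13). Slc35e4 was highest at 0.21 (SE 0.16).

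The promoters of these 2 genes are shown because both carriers serve the secretory pathway and stood lower in both siOrm arrays. They are the 250 bases before the RefSeq start in GRCm38.p6, 5′ to 3′ on the strand of the gene, and no other gene of the table overlaps them. Capitals mark CCACG on either strand, which is the second part of the endoplasmic reticulum stress response element. The window of Slc35b1 is chr11:95384606-95384855 on the plus strand and that of Slc35c1 is chr2:92460519-92460768 on the minus strand.
Slc35b1: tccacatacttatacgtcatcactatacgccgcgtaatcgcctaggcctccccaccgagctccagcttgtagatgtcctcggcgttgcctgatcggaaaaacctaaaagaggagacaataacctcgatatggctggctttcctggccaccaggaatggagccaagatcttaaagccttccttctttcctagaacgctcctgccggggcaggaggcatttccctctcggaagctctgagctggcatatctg
Slc35c1: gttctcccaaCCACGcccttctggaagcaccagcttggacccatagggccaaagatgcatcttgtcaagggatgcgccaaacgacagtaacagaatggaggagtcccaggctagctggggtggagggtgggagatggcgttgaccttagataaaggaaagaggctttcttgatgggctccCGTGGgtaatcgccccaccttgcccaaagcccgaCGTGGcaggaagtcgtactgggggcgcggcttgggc
The Slc35c1 window held CCACG 3 times, starting 240, 70 and 36 bases before the start, and the Slc35b1 window held none of the motifs searched.

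Promoter windows were found for 177 of the 226 carriers and for 8767 measured genes, and both strands were searched. The whole endoplasmic reticulum stress response element, CCAAT and CCACG with 9 bases between them, was in the windows of 0 carriers and of 0.194% of the measured genes. CCACG, which overlaps it and can overlap the E-box, was in 46.9% of carriers and 44.3% of measured genes, and CCAAT, its other part, in 39.5% and 39.8%. The E-box CACGTG was in 14.1% and 9.66%, TATAAA in 7.91% and 9.68%, the ONECUT core ATTGAT in 6.78% and 5.02%, the amino acid response element TGATGNAA in 2.26% and 2.62%, and the HNF4 site CAAAGTCCA in 1.13% and 0.605%. These are counts of letters in 250 bases, with no test.

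Metal carriers differed mostly by small amounts. Differences were below 0 for 5 of 8 iron, copper and heme carriers and 11 of 15 zinc carriers, and for 5221 of all 10923 genes. With 1 array left out the Slc30 median ran from -0.18 to 0.0097 and the Slc39 median from -0.11 to 0.0092. Slc11a2, the divalent metal transporter DMT1 that moves iron out of endosomes, stood at 0.22 and 0.21 in siControl and at -0.29 and -0.11 in siOrm. Its difference was -0.42 (SE 0.14, interval -0.76 to -0.081), leaving out 1 array gave values from -0.51 to -0.33, and its 3 probe sets were all lower, at -0.62, -0.45 and -0.18. Slc48a1, a heme carrier of lysosomes, differed by -0.18 (SE 0.14) and Slc25a28, a mitochondrial iron importer, by -0.15 (SE 0.13), both separated downwards. Of the 8 iron, copper and heme carriers 3 were separated downwards and 1 upwards, against 15.3% and 17.0% of all genes. The one separated upwards was Slc46a1, at 0.15 (SE 0.12). Of the 15 zinc carriers 3 were separated downwards and 1 upwards, against 15.3% and 17.0% of all genes, and the median was -0.068. Slc30a7 and Slc30a5, which load zinc into the secretory pathway, differed by -0.19 (SE 0.15) and -0.17 (SE 0.13), and Slc39a7, which releases zinc from it, by -0.15 (SE 0.14). Slc30a9, Slc39a6 and Slc39a9 had differences of -0.23 (SE 0.24), -0.22 (SE 0.22) and 0.13 (SE 0.15), and each changed sign when 1 array was left out.

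Slc10a2, the apical sodium-dependent bile acid transporter of ileum, kidney and bile ducts, had the largest difference on the lower side. It stood at 0.072 and 1.30 in siControl and at -1.13 and -0.072 in siOrm. The groups did not overlap, but siControl replicate 1 and siOrm replicate 2 lay far closer to each other than to the other array of their own group. The difference was -1.29 (SE 0.50, interval -2.54 to -0.043), or -0.68 without siControl replicate 2 and -0.76 without siOrm replicate 1. Of the biliary markers, which share a cell type with this carrier, Sox9 was also highest in siControl replicate 2, at 0.74, while Krt7 and Krt19 were highest in siOrm replicate 2, at 0.37 and 0.57.

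Ion exchangers and cotransporters had medians of -0.026 for Slc12, -0.0095 for Slc4 and -0.096 for Slc26. The Slc26 median ran from -0.16 to 0.093 with 1 array left out. The 6 Slc12 cation and chloride cotransporters lay between -0.24 and 0.025, with Slc12a2 lowest (SE 0.19; -0.073 without siControl replicate 2), followed by Slc12a4 at -0.11 (SE 0.13) and Slc12a5 at -0.069 (SE 0.13). Slc8b1, the sodium and calcium exchanger of mitochondria, stood at -0.052 and -1.09 against 0.087 and 0.052, a difference of 0.64 (SE 0.33) that was 0.12 without siControl replicate 2. Slc8a1, its plasma membrane relative, was even within groups, at 0.12 and 0.089 against -0.099 and -0.089, a difference of -0.20 (SE 0.13). Of 9 carriers for protons and bicarbonate 5 were separated upwards and 0 downwards, against 17.0% and 15.3% of all genes, with a median of 0.038. Slc26a4 and Slc4a3, both anion exchangers, differed by 0.27 (SE 0.17) and 0.23 (SE 0.16), or by 0.085 and 0.075 without siControl replicate 2. Slc26a8 and Slc26a7 differed by 0.20 (SE 0.13) and -0.15 (SE 0.13), and the bicarbonate cotransporter Slc4a4 by -0.13 (SE 0.27). The scaffold genes Slc9a3r1 and Slc9a3r2 and Slc4a1ap differed by -0.064 (SE 0.16), 0.11 (SE 0.15) and -0.056 (SE 0.16).

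Carriers of blood cells followed different arrays. Slc4a1, the band 3 anion exchanger of erythrocytes, stood at -0.040 and -0.20 against 0.70 and 0.040, a difference of 0.49 (SE 0.24), or 0.16 without siOrm replicate 1. Its 3 probe sets gave 1.02, 0.26 and 0.18, and the largest was from a probe set of a name type that can share sequence. Beside it, the 3 erythroid markers measured of 7 had means of -0.11 and -0.27 in siControl and 0.27 and 0.11 in siOrm. Alas2 differed by 0.62 (SE 0.13) and Klf1 by 0.50 (SE 0.18), while Epb42 differed by 0.022 (SE 0.13) with overlapping groups. Slc25a37, the mitochondrial iron importer of erythroid cells, differed by 0.12 (SE 0.18). Slc11a1, a metal carrier of macrophage phagosomes, stood at -0.30 and 0.43 in siControl, on opposite sides of the siOrm arrays at -0.051 and 0.051, as did the mean of the macrophage markers. The part of blood cells in these values was not tested.

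Genes that help carriers work differed little. Of 9 measured sodium pump subunits and transporter partners 0 were separated upwards and 1 downwards, with a median of 0.016. The one separated was Emb, an accessory protein of monocarboxylate carriers, at -0.13 (SE 0.13), and Fxyd2, a regulator of the sodium pump, differed by 0.19 (SE 0.20).

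A few carriers with differences past 0.5 had an unadjusted p over 0.05, and 3 of them are given here for size, chosen after their values were seen. Slc46a3, a lysosomal carrier, stood at -0.83 and -0.098 in siControl and at 0.17 and 0.098 in siOrm, a difference of 0.59 (SE 0.25), or 0.23 without siControl replicate 1. Slc37a1, a sugar phosphate carrier of the endoplasmic reticulum, stood at 0.70 and 0.032 against -0.39 and -0.032, a difference of -0.57 (SE 0.26), or -0.24 without that array. Slc41a2, a magnesium carrier, stood at 0.43 and 0.0084 against -0.67 and -0.0084, a difference of -0.56 (SE 0.26), or -0.23 without siOrm replicate 1. In all 3 the groups did not overlap, but the first replicates lay far apart and the second replicates close together.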

How the data were processed

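The authors deposited 1 table of log2 values for 18852 probe sets on 4 arrays (base not stated). Per the series text the array was the Affymetrix Mouse Genome 430A 2.0, while the labels' protocols name labelling by another maker and RNA from cultured cells. For each probe set the 4-array median had been subtracted (largest distance of a row median from 0, 4.8e-07). The sources used here do not name the software, normalization or filter. The number of arrays limits the precision.

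Probe sets were named by the platform annotation (17209 with 1 symbol, 564 with several, 1044 unnamed, 35 controls) and averaged per gene. limma 3.58.1 in R 4.3.3 (lmFit, eBayes, constant variance prior with 3.60 degrees of freedom beside 2 residual ones) was run two-sided on all 10923 genes, with Benjamini-Hochberg adjustment and a threshold of 0.05; it was tested on simulated data. Sample groups came from the source names, since the siOrm titles could name a target or a replicate.

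Genes were named by rule: up to 12 each way at an unadjusted p under 0.05 without overlap, the 3 smallest p-values of each subfamily of at least 5 genes and of each functional list, and a list of hepatocyte carriers. Added after their values were seen were Slc2a1, Slc3a2, Slc7a1, Slc7a2, Slc7a5, Slc11a1, Slc25a4, Slc25a5, Slc25a33 and Slc25a37. The other Slc22 genes named, Slc37a1, Slc41a2, Slc46a1, Slc46a3 and the promoter motifs were also added then. The members and lists were chosen with earlier results of these data known. Promoter sequences are from RefSeq (GRCm38.p6). Alternatives were other priors, normalization, centring, probe set choice, left-out arrays and a replicate block.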

Additional observations from a re-analysis of the deposited data

How the results depend on the processing

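With the replicate number as a block, 0 Slc genes and 0 genes in all passed the test, so no call changed. At an unadjusted p under 0.05, 13 Slc genes were higher and 5 lower. The share of all genes was not counted in that fit, so these counts have no background. Nothing in the labels says that the numbers pair the arrays, and the correlation of same-numbered deviations was 0.13. The variance prior with a trend called 11 genes, 0 of them Slc. A fit on single probe sets called 0. Leaving out 1 array, the genes called ran from 0 to 229 and the Slc genes from 0 to 3, the highest without siControl replicate 1 (Slc15a2, Slc25a47 and Slc8b1); unadjusted counts ran from 5 to 27 higher and 1 to 16 lower, and separated genes from 80 to 122 upwards and 52 to 77 downwards, since 1 array against 2 separates more easily. Without probe sets that can share sequence 191 Slc genes remained and 5 were higher at an unadjusted p under 0.05, since 6 of the 12 had no other probe set and Slc15a2 then missed that threshold with its remaining probe set at 1.13. The unadjusted and separated Slc counts with 1 array left out have no background, since the share of all genes was not counted for them. That share was also not counted without probe sets that can share sequence. In that setting Slc2 had a median of 0.35, Slc4 of 0.038 and Slc2a3 a difference of 0.29. After quantile normalization the medians were 0.076 for Slc25, 0.026 for Slc4 and 0.19 for Slc6, and Slc4a1ap stood at 0.011 and Slc4a4 at 0.0030; the cause was not tested.

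Medians with 1 array left out ran from 0.025 to 0.096 over all Slc genes. By subfamily they ran from 0.15 to 0.31 (Slc1), 0.18 to 0.33 (Slc2), -0.040 to 0.091 (Slc4), -0.015 to 0.20 (Slc5), 0.055 to 0.13 (Slc6), -0.0997 to 0.0998 (Slc7), -0.058 to -0.014 (Slc12), -0.039 to 0.19 (Slc16), 0.0075 to 0.079 (Slc25), -0.16 to 0.093 (Slc26), -0.021 to 0.35 (Slc27), -0.18 to 0.0097 (Slc30), -0.11 to 0.037 (Slc35), 0.020 to 0.21 (Slc38) and -0.11 to 0.0092 (Slc39). Genes named by the rule that changed sign ran from -0.0046 to 0.56 (Slc13a2), -0.54 to 0.19 (Slc15a3), -0.29 to 0.069 (Slc25a15), -0.75 to 0.39 (Slc25a25), -0.021 to 0.48 (Slc27a2), -0.19 to 0.066 (Slc28a3), -0.57 to 0.11 (Slc30a9), -0.28 to 0.92 (Slc38a2), -0.028 to 0.40 (Slc38a3), -0.51 to 0.080 (Slc39a6), -0.0081 to 0.27 (Slc39a9), -0.20 to 0.087 (Slc4a1ap), -0.53 to 0.26 (Slc4a4), -0.015 to 0.37 (Slc5a9), -0.22 to 0.094 (Slc9a3r1) and -0.019 to 0.23 (Slc9a3r2). Slc2a3 changed sign only without probe sets that can share sequence. The other 64 of the 81 genes named by the rule kept their direction in every alternative run. Of the genes added later, Slc2a1, Slc7a1, Slc7a2, Slc7a5, Slc11a1, Slc22a2, Slc22a4, Slc22a5, Slc22a6, Slc22a26, Slc25a4, Slc25a5, Slc25a33 and Slc25a37 changed sign when 1 array was left out. Counts of separated and unadjusted genes under the alternatives were added after the data were seen.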
